A study of Drosophila melanogaster with 2 samples.

Results

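The genes described here encode the translation initiation and elongation factors of Drosophila melanogaster. They are the protein-coding genes of the Release 6 (dm6) annotation whose symbol starts with eIF or eEF. There are 52 of them among 13968 protein-coding genes, 44 initiation factors (eIF) and 8 elongation factors (eEF). Their promoters were searched for peaks of a chromatin immunoprecipitation (ChIP-seq) experiment on the DNA-associated protein hng2.

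Embryos of mixed sex, aged 0 to 14 h, came from a transgenic line with GFP fused to the C terminus of CG8359, the older name of hng2. The samples form 1 group of 2 biological replicates, numbered 2 and 3, and no untagged or untreated group is among them. The labels give each replicate its own biosample and the same fly line, so the spread is that between embryo collections of 1 line. The antibody was directed against GFP according to the sample description, while the antibody entry of the labels names CG8359. Whole embryos were used, so the cells in which a site was occupied cannot be told apart.

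In each round of translation, initiation factors bring the small ribosomal subunit, the initiator tRNA and the mRNA cap together at the start codon. The factor eIF2 carries the initiator tRNA, eIF2B recharges eIF2 with GTP, eIF3 is the large scaffold on the small subunit, and eIF4E, eIF4G and eIF4A recognise and unwind the capped end. Elongation factors then deliver each aminoacyl-tRNA and move the ribosome along the message. Promoters of the core genes of this machinery are active in most cells of the embryo. Several members are paralogs, such as eIF4E3, and the activity of the promoters was not measured here. The protein hng2 belongs to a family with MADF and BESS domains, which contact DNA and other proteins.

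Elongation factor promoters held hng2 summits in 4 of 8 genes and initiation factor promoters in 4 of 44. A gene is called bound where a peak summit of the authors' optimal list lay within 500 bp of any of its transcription start sites (TSSs). In all, 8 of the 52 genes were bound (15.4%, exact binomial 95% CI 6.88 to 28.1), beside 10.3% of all protein-coding genes. The share was 50% (95% CI 15.7 to 84.3) of elongation factors and 9.09% (95% CI 2.53 to 21.7) of initiation factors. The initiation share was close to that of all genes, and the 2 intervals overlap. Genes are not replicates, so no test was run, and the intervals cover counting over genes only.

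The 8 bound genes were the same in each replicate taken alone, and each replicate added 2 initiation factors. For this, each replicate's list was limited to its top 3170 peaks by signal, the length of the optimal list. Both replicates gave 10 of 52 genes (19.2% ± 0, SD, n = 2), beside 10.6% of all genes in replicate 2 and 10.5% in replicate 3. The 4 bound elongation factors were found in each. Of initiation factors, each replicate gave 6 of 44 (13.6% ± 0, SD, n = 2). In both replicates at once there were 9 of the 52 genes, beside 5.99% of all genes. The ninth was eIF4A, which was not in the optimal list and whose strongest summits in the replicates lay at different start sites.

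**Figure D1:**
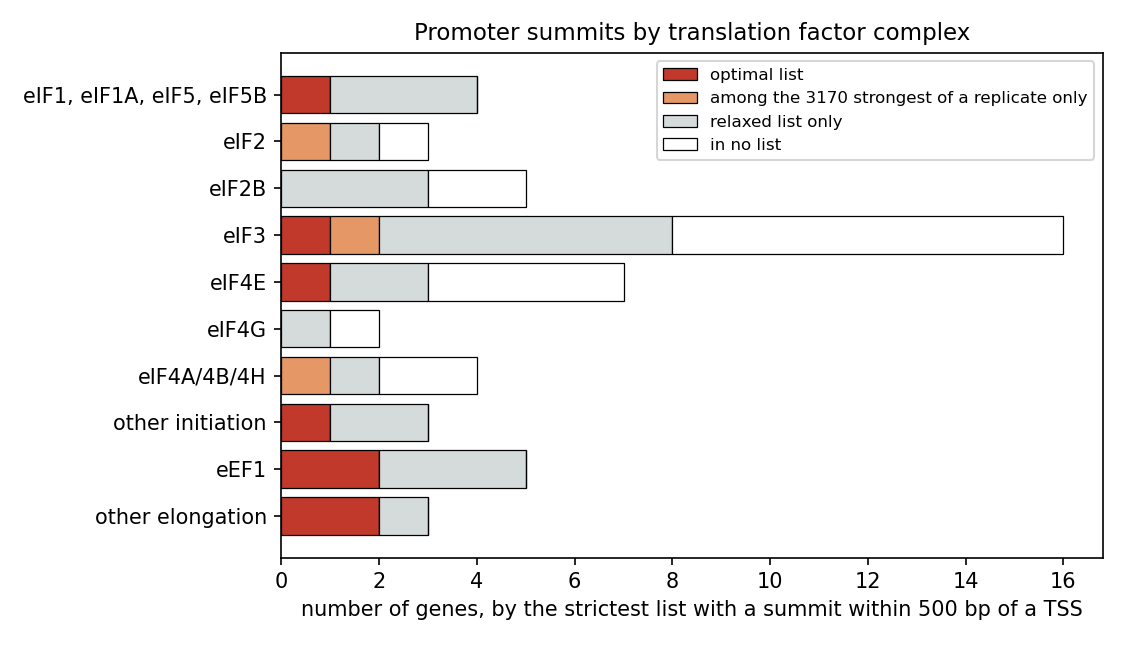
Number of genes (x axis) per translation factor complex (y axis), coloured by the strictest peak list with a summit within 500 bp of a TSS. The optimal list holds 4 of 8 elongation factor genes and 4 of 44 initiation factor genes, 1 each among the eIF1, eIF3, eIF4E and other initiation groups, and 18 initiation factor genes have no summit in any list.

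Among the elongation factors, eEF1gamma had the strongest peak. Its protein is a subunit of the exchange factor that restores GTP on eEF1alpha, and the gene (FBgn0029176) lies on 3R at 29220172 to 29222109. The optimal summit was at 29220173, 1 bp from the TSS, with a signal of 649.6 and rank 255 of 3170. Signal is the value the authors' peak caller gave a peak and is comparable only within a list. Replicate 2 gave a signal of 451 at rank 260 and replicate 3 a signal of 185 at rank 300. The summits of both replicates lay within 3 bp of the optimal summit, so the position was the same in each. The gene eEF2 (FBgn0000559, 2L, 21677913 to 21682164) encodes the GTPase that moves the ribosome by a codon. Its optimal summit, at 21682100, had a signal of 239 at rank 1336 and lay 16 bp downstream of a TSS, in the 5' UTR. The rank was 1667 in replicate 2, with a signal of 142, and 865 in replicate 3, with a signal of 105. The replicate summits at eEF2 were 18 bp and 51 bp from the optimal one, on opposite sides.

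The start regions of both genes are shown from 80 bases before to 20 after their 5'-most TSS, 5' to 3' on the coding strand, because the summits sit there or next to them. Capitals mark the DRE element TATCGATA, the BEAF-32 core CGATA on either strand and TATAAA. The first window is chr3R:29220092-29220191, plus strand, and the second chr2L:21682145-21682244, minus strand, both on dm6.
eEF1gamma: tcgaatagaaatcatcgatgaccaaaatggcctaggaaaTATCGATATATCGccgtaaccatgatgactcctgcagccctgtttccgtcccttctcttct
eEF2: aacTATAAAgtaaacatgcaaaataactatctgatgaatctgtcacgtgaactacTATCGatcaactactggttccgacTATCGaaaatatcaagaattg
The DRE of eEF1gamma begins 42 bp before the summit and runs into a further TATCG. The eEF2 window holds no DRE but 2 single TATCG runs, and its optimal summit lies 64 bp downstream of the TSS shown.

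The other 2 bound elongation factor genes are on arm 2R. The gene eEF1alpha1 (FBgn0284245, 11891135 to 11895762) encodes the GTPase that carries aminoacyl-tRNA to the ribosome and was the one member with 2 optimal summits. The first, at 11892063, had a signal of 221 at rank 1495 and lay 59 bp upstream of 1 of its 4 TSSs. That TSS is not the 5'-most one, and with the 5'-most TSS alone eEF1alpha1 was not bound. The second, at 11893286, had a signal of 152 at rank 2690, and the nearest TSS there was that of the intronic snoRNA:Me28S-A1322, 163 bp away. The first summit ranked 1990 in replicate 2, with a signal of 125, and 1100 in replicate 3, with a signal of 93.7. The second ranked 3771 in replicate 2, outside its top 3170, with a signal of 80.9, and 1714 in replicate 3, with a signal of 76.2. The first summit was thus held by both replicates and the second by replicate 3. The gene eEF5 (FBgn0285952, 24057798 to 24059483), whose protein was formerly named eIF5A, helps ribosomes past difficult stretches of peptide. Its summit at 24057800 was 2 bp from a TSS with a signal of 205 at rank 1678. Replicate 2 gave a signal of 159 at rank 1409 and replicate 3 a signal of 62.0 at rank 2752.

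The 4 elongation factor genes that were not bound each had a summit in the pooled relaxed list, at ranks between 6635 and 25410. The relaxed lists hold 30000 peaks each and reach far below the optimal threshold. In the pooled list, made from both replicates together, eEF1delta (2L) ranked 15152, eEF1beta ranked 24032 and eEF1alpha2 (3R), the second gene for eEF1alpha, ranked 25410. The selenocysteine factor gene eEFSec ranked 6635, better than the median of 8270.5 over all genes with a summit there, with its summit 481 bp from the TSS, near the 500 bp limit. The best rank any of the 4 had in a replicate was 5478, for eEFSec in replicate 2. In replicate 3 eEF1delta ranked 6937. The paralogs eEF1alpha1 and eEF1alpha2 thus stood at 1495 and 25410 in the same list.

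**Figure D2:**
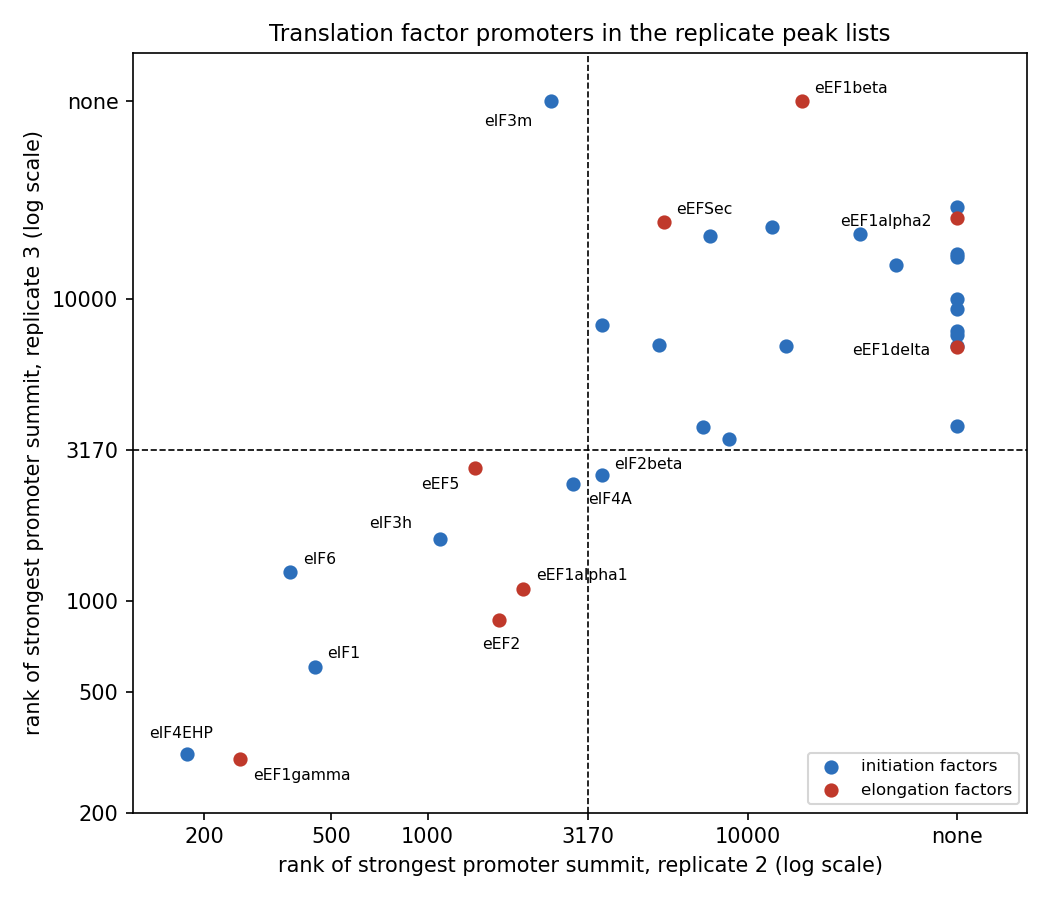
Rank of the strongest summit within 500 bp of a TSS in replicate 2 (x axis) and replicate 3 (y axis), both on log scales with rank 1 the highest signal, for genes with such a summit in at least 1 replicate's relaxed list. Dashed lines mark rank 3170 and "none" marks no summit in that list. The 8 bound genes and eIF4A sit inside both lines, at ranks better than 3170.

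The strongest peak of all members was upstream of eIF4EHP, whose protein binds the mRNA cap without recruiting eIF4G and represses translation of certain messages in the early embryo. The gene (FBgn0053100) lies on 3R at 24063077 to 24108960 on the minus strand. The optimal summit at 24109195 had a signal of 759 at rank 202 and lay 235 bp upstream of the TSS. Replicate 2 gave a signal of 580 at rank 177 and replicate 3 a signal of 182 at rank 312. The summit lay between divergent genes and was closer to the TSS of CG18428, 141 bp away, than to that of eIF4EHP. The summit at eIF1 (FBgn0035423, 3L, 3223341 to 3224650) was also closer to a neighbour. The protein eIF1 guards the choice of start codon. The summit, at 3223015, had a signal of 442 at rank 455, with a signal of 326 at rank 445 in replicate 2 and of 125 at rank 607 in replicate 3. It lay 326 bp upstream of eIF1 and 55 bp upstream of the ribosomal protein gene RpL28, which is read in the other direction.

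The sequence between these divergent pairs is shown from 60 bases before to 60 after the optimal summit, on the plus strand of dm6, because the peak cannot be given to either gene by its position alone. Capitals mark the same elements as above. The first window is chr3L:3222955-3223075 and the second chr3R:24109135-24109255.
eIF1: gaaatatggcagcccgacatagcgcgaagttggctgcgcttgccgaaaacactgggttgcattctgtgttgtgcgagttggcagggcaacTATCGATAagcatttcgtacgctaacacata
eIF4EHP: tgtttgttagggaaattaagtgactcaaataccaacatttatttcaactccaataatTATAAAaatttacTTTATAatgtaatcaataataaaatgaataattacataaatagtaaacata
The window between RpL28 and eIF1 holds a DRE that begins 30 bp from the summit on the eIF1 side. The window at eIF4EHP holds TATAAA on both strands, the nearer of them beginning 3 bp from the summit, and neither DRE nor CGATA.

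The remaining bound initiation factor genes were eIF6 and eIF3h. The protein eIF6 keeps the large ribosomal subunit from joining too early. Its gene (FBgn0034915, 2R, 23849246 to 23850301) had a summit at 23850415 with a signal of 448 at rank 444. Replicate 2 gave a signal of 363 at rank 372 and replicate 3 a signal of 88.9 at rank 1249. The summit was 114 bp upstream of eIF6, inside the antisense RNA gene asRNA:CR45928 and the gene ytr. The TSS of asRNA:CR45928 was nearer, at 85 bp. The gene eIF3h (FBgn0022023, 2L, 5051193 to 5053094), for a subunit of eIF3, had a summit at 5052531 in an intron, 249 bp downstream of a TSS, with a signal of 260 at rank 1157. Replicate 2 ranked it 1093, with a signal of 189. In replicate 3 the strongest summit at this promoter was another, 10 bp from the same TSS at rank 1610, and the intronic one ranked 1952. The start of the divergent gene senju was 312 bp from the optimal summit.

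Of the members just outside the optimal list, eIF4A, eIF2beta and eIF3m were each among the 3170 strongest of a replicate. The gene eIF4A (FBgn0001942) encodes the RNA helicase of the cap complex, and ranked 3399 in the pooled list, 2853 in replicate 2 and 2449 in replicate 3. Its strongest summit was at 5981691 on 2L in replicate 2, 73 bp upstream of a TSS, and at 5982599 in replicate 3, 5 bp downstream of another TSS. The replicates thus both held the gene but differed in its strongest summit. Each replicate's relaxed list had 2 summits at the eIF4A start sites, and the weaker ones were not compared. The gene eIF2beta (3L), for a subunit of eIF2, ranked 3401 in the pooled list, 3497 in replicate 2 and 2607 in replicate 3. The gene eIF3m, for an eIF3 subunit, ranked 3962 in the pooled list and 2427 in replicate 2, and had no summit in replicate 3. By distance, the bound genes farthest from their summits were eIF1 at 326 bp and eIF3h at 249 bp. The unbound genes nearest to an optimal summit were eIF2Bbeta at 692 bp, to a peak ranked 60, and eIF3d1 at 1307 bp.

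No initiation complex had more than 1 bound subunit gene in the optimal list, beside 10.3% bound among all protein-coding genes. Of the 16 eIF3 genes eIF3h was bound, of the 7 eIF4E genes eIF4EHP, and of the group eIF1, eIF1A, eIF5 and eIF5B it was eIF1. None of the 3 eIF2 genes, 5 eIF2B genes, 2 eIF4G genes or 4 genes of eIF4A, eIF4B and eIF4H was bound. In the eEF1 group 2 of 5 genes were bound. Counts this small allow wide shares, for example 0.158% to 30.2% for eIF3 and 5.27% to 85.3% for eEF1 (exact binomial 95% CI). Both intervals include the 10.3% of all genes, so these counts do not set the complexes apart from it. The strongest pooled summits of the complexes without a bound gene ranked 3399 at eIF4A, 3401 at eIF2beta, 4384 at eIF2Bepsilon and 24454 at eIF4G2. The canonical cap-binding gene eIF4E1 ranked 8639 in the pooled list, against 202 for its paralog eIF4EHP, and eIF4E3, eIF4E4, eIF4E5 and eIF4E7 had no summit in any list. The scaffold gene eIF4G1, on arm 4, also had none, and no optimal summit lay within 4762799 bp of eIF4B on 3L. Whether reads could be placed well in those regions was not tested.

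In the pooled relaxed list all 8 elongation factor genes had a promoter summit, and initiation factor genes had one about as often as other genes. Summits of the pooled list were found at 8 of 8 elongation and 23 of 44 initiation factor genes (52.3%), beside 44.8% of all genes. In replicate 2 they were found at 6 and 16 genes, beside 40.9% of all genes, and in replicate 3 at 7 and 24, beside 46.7%. In none of the 3 lists was there a summit at 18 initiation factor genes (40.9%), close to the 41.7% of all genes. Among them were eIF2alpha, the subunit whose phosphorylation shuts down initiation, and 8 of the 16 eIF3 genes. The median rank of the 31 genes with a pooled summit was 6635, beside 8270.5 for all genes with one. In replicate 2 it was 3500.5 over 22 genes, beside 7920 for all genes with a summit there. In replicate 3 it was 6985 over 31 genes, beside 8499.

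Bound elongation and initiation factors differed in where the summit lay. The 4 elongation summits were 1 to 59 bp from a TSS, with a median of 9 bp, and the 4 initiation summits 114 to 326 bp, with a median of 242 bp. The 2 groups did not overlap in the optimal list. Distances were to the nearest annotated TSS. There are 4 at eEF1alpha1, 2 each at eEF1gamma, eEF2, eEF5 and eIF3h, and 1 each at eIF1, eIF4EHP and eIF6. More TSSs give a summit more ways to lie close to one. Over all 1445 bound genes the median was 160 bp, and 28.9% had their strongest summit within 100 bp. At the 59 bound genes of 92 for cytoplasmic ribosomal proteins the median was 28 bp, and 89.8% lay within 100 bp. The elongation distances lay within the range of the ribosomal protein genes, 0 to 141 bp, and so did that of eIF6 at 114 bp. Those of eIF1, eIF3h and eIF4EHP lay above it. Over all bound genes the range was 0 to 500 bp, which holds the distances of both groups. In the single replicates the 2 groups were less separate. All 4 elongation summits were within 100 bp of a TSS in replicate 2 (2 to 72 bp) and in replicate 3 (4 to 67 bp). Of 6 initiation summits, 2 were within 100 bp in each, those of eIF3m and eIF4A in replicate 2 and those of eIF3h and eIF4A in replicate 3. Elongation and initiation distances therefore overlapped in both replicates.

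**Figure D3:**
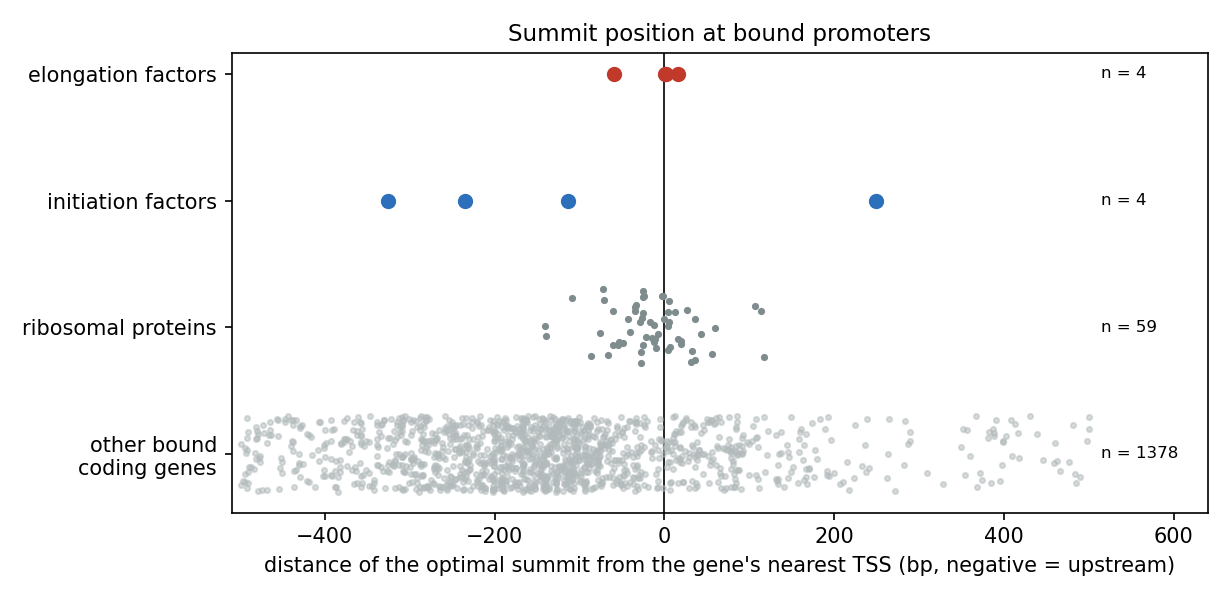
Signed distance in bp (x axis, negative upstream) of the strongest optimal summit from the nearest TSS of the gene, for bound genes of 4 groups (y axis, vertical scatter without meaning). The 4 elongation factor summits lie within 59 bp of a TSS, as most of the 59 ribosomal protein summits do, and the 4 initiation factor summits lie 114 to 326 bp away.

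Peaks also covered the start sites of the 2 groups differently in the optimal list, but less so in replicate 3. The optimal peak interval ran over a TSS at all 4 bound elongation genes and at none of the initiation genes, beside 6.29% of all genes. In replicate 2 it did so at the same 4 elongation genes and at eIF3m and eIF4A, which is 4.55% of initiation genes beside 6.09% of all genes. In replicate 3 it did so at the same 4 elongation genes and at eIF3h, eIF4A, eIF4EHP and eIF6, which is 9.09% of initiation genes beside 7.44% of all genes. The 4 elongation genes therefore had a peak over a TSS in all 3 lists, and initiation genes in 0, 2 and 4 cases.

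The genes next to the summits are given for both groups, without a test. At 4 of 4 bound elongation factor genes the nearest TSS to the strongest summit was the gene's own, as at 59 of 59 ribosomal protein genes, and this was so at 1 of 4 initiation factor genes, eIF3h. Over all bound protein-coding genes it was so at 76.5%. Of the 4 bound initiation factor genes 3 had the start of another protein-coding gene within 500 bp of a TSS, against 19 of all 44. Of the 4 bound elongation factor genes 1 had such a neighbour, against 2 of all 8. Of all protein-coding genes 30.8% had such a neighbour, and of the bound ones 49.9%, where a summit between divergent genes counts for both.

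**Figure D4:**
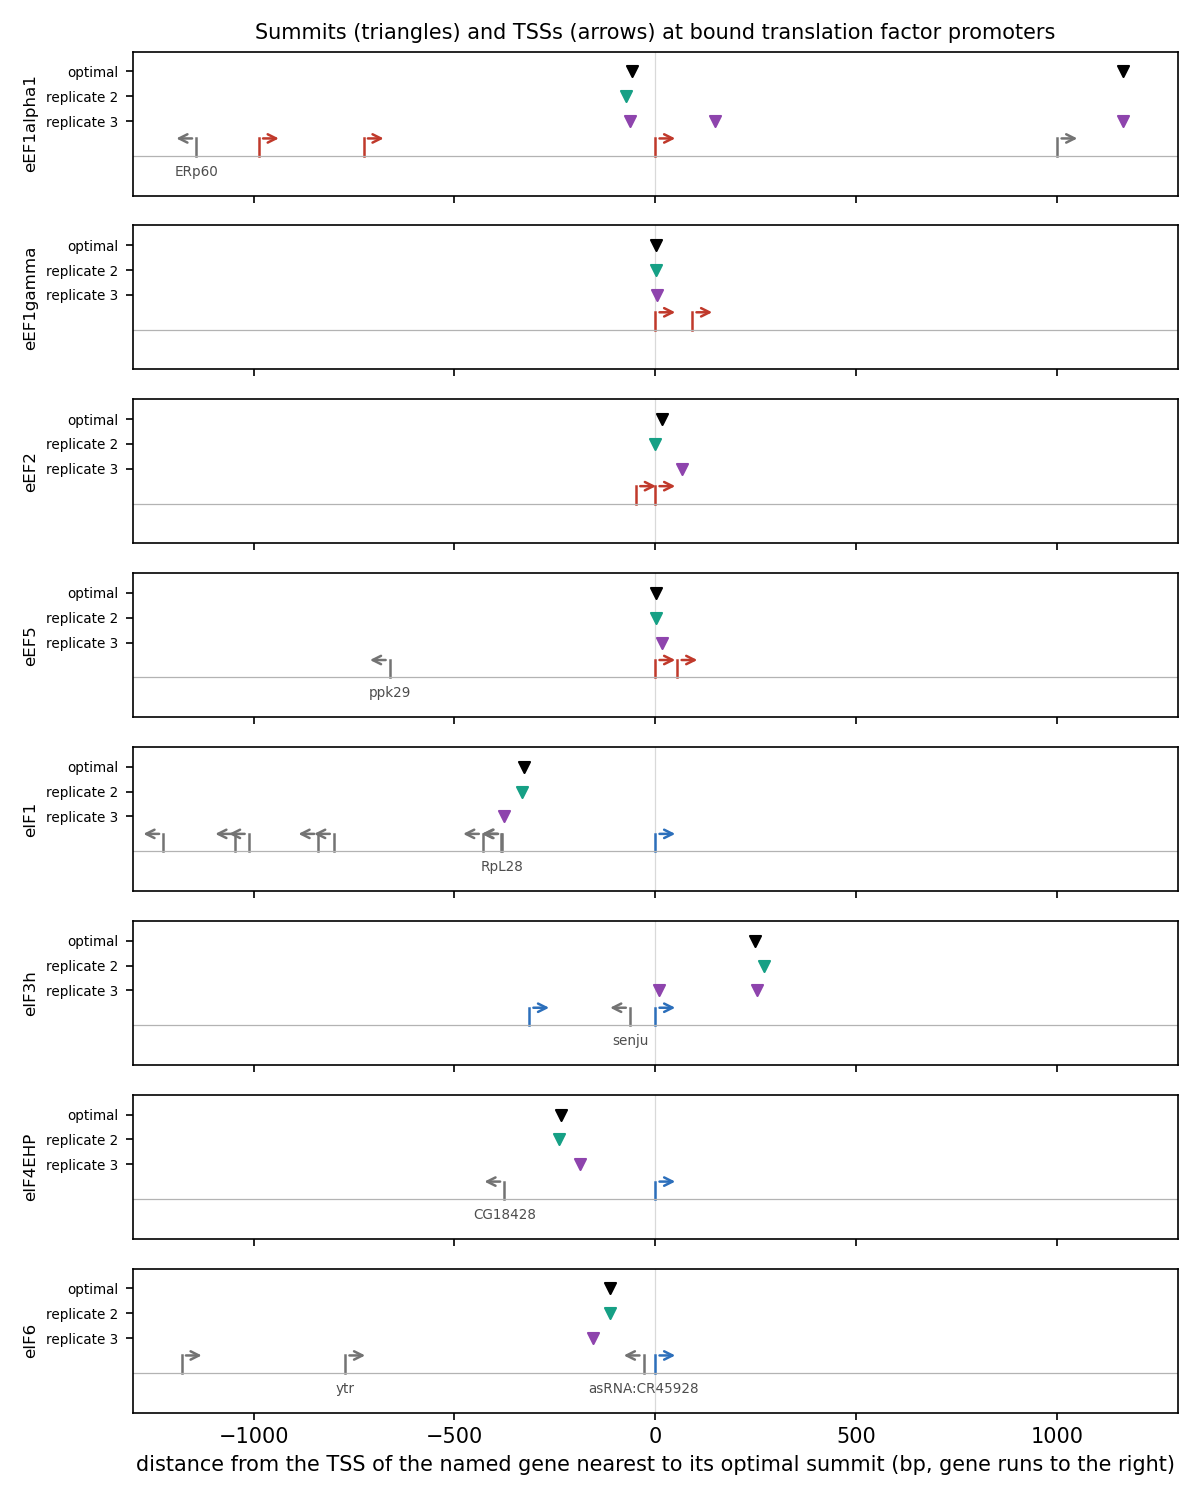
Summits of the optimal list and of the 3170 strongest peaks of each replicate (triangles) and annotated TSSs (arrows in the direction of transcription, coloured for the named gene and grey for others) around the 8 bound genes. The x axis is the distance in bp from the named gene's TSS nearest to its optimal summit. Summits stand on the start sites of eEF1gamma, eEF2 and eEF5 and between divergent starts at eIF1 and eIF4EHP.

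The summits at bound members were found again in both replicates. Of the 9 optimal summits, replicate 2 held 8 within 100 bp in its top 3170 peaks and replicate 3 held 9. The share over all optimal summits is not given here, so these counts do not set the members apart. The exception was the second summit of eEF1alpha1. Offsets between replicate and optimal summits ran from 0 to 22 bp in replicate 2 and from 0 to 51 bp in replicate 3. Since the optimal peaks come from the same 2 libraries pooled, this describes the lists and is not independent evidence.

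Among short sequence elements, the BEAF-32 core was found at 4 of the 8 strongest summits, and the DRE and TATAAA at 2 each. In windows of 100 bp to each side of the strongest optimal summit of each bound member, both strands were searched for 7 motifs. TATCGATA (DRE) was in 2 of 8 windows, those of eEF1gamma and eIF1, beside 3.42% of the 1317 optimal summits near any TSS. CGATA (BEAF-32), which lies in each DRE, was in 4 of 8, those of eEF1gamma, eEF2, eEF5 and eIF1, beside 27.8%. TATAAA was in 2 of 8, at eIF4EHP and eIF6, beside 35.7%. GAGAG (GAGA factor), CAGCTG (E-box), GGTCACACT (core of Motif 1) and GTATATTT (core of Ohler 6) were in 0 of 8, beside 25.1%, 9.11%, 1.06% and 3.64%. With 8 windows such counts are descriptions, and no factor's binding was measured.

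Over promoters from 250 bp before to 50 bp after any TSS, bound or not, TATCGATA was in 2 of 8 elongation and 13 of 44 initiation factor genes. The share of all protein-coding genes was 10.2%, and among ribosomal protein genes it was 28 of 92. CGATA was in 6 of 8, 29 of 44 and 67 of 92 of these groups and in 53.1% of all genes. A further element, the TCT initiator of ribosomal protein genes, was searched as its core CTTT with the C at position -2 to 3, where 1 is an annotated TSS and there is no 0. It was found in 1 member, eIF3m, and in 20 of 92 ribosomal protein genes, beside 3.27% of all genes. None of the 8 bound members had it. As the search found it in only 20 of 92 ribosomal protein genes, a miss does not show that the initiator is absent.

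Counts in 4 other lists of protein synthesis genes, ribosomal proteins aside, were too small to set these groups apart from all genes. Of 20 cytoplasmic tRNA synthetases, which charge tRNAs with amino acids, 4 were bound (95% CI 5.73% to 43.7%), namely SerRS (signal 315), IleRS (signal 293), GluProRS (signal 242) and ThrRS (signal 151). A gene is called held where it had a summit in a replicate's list cut to the length of the optimal list. SerRS was held by both replicates and the other 3 by replicate 2 alone. In the relaxed list of replicate 3 these other 3 also had a promoter summit. Of 14 regulators of initiation, 2 were bound (95% CI 1.78% to 42.8%), both held by replicate 3 alone. They were Thor, the eIF4E-binding repressor, with a signal of 156, and Gcn2, a kinase of eIF2alpha, with a signal of 158. Both also had a promoter summit in the relaxed list of replicate 2. Of 5 termination and recycling genes 1, eRF3, was bound (95% CI 0.505% to 71.6%), with a signal of 142 and a summit 28 bp from its TSS, and both replicates held it. Of 9 mitochondrial translation factors 0 were bound in the optimal list and 0 were held by either replicate. This allows a share of up to 33.3% taken as 3 counts of 9, or 33.6% as the exact binomial limit. All 4 intervals overlap and include the 10.3% of all genes, and no difference between these groups was tested. Ribosomal protein genes were bound in 59 of 92 cases (64.1%, 95% CI 53.5% to 73.9%), beside the same 10.3% of all genes. Their signals reached 759 at RpS27 and 586 at RpLP0, so the peaks at eIF4EHP and eEF1gamma were among the strongest of the translation genes listed.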

How the data were processed

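Per the labels, chromatin was sonicated to fragments of 200 to 800 bp. The authors deposited 8 peak lists, of which the 4 on dm6 were used: replicate 2, replicate 3, both pooled, and the optimal list made from these by irreproducible discovery rate (IDR), per the deposited file descriptions. The 4 lists on dm3 were not used. The peak value is a signal that the authors deposited for each peak, not scaled between lists. The peak caller, the aligner and the IDR threshold: not given in the sources used here. Without read counts in the lists the depth is unknown, and intervals cover counting over genes only.

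Summit positions (1-based) were computed from peak start and summit offset and joined to TSSs of Ensembl release 115 and to the Release 6 genome, with transposable elements left out. Python 3.11.15, numpy 2.4.6, pandas 2.3.3 and scipy 1.17.1 were used. The joining of summits to TSSs was checked on simulated summits. The optimal peaks are the 3170 pooled peaks of highest signal. Genes are not replicates and there is 1 group, so values are described without tests. The design listed other settings for the TSS distance, the TSSs used, the threshold and the replicates. Genes named are the bound members, those within the 3170 strongest of a replicate, all elongation factors, the strongest of a complex, those next to the distance limit, neighbours of bound summits and up to 4 bound genes of each other list. eIF2alpha, the eIF4E and eIF4G paralogs and eIF4B were named after their values were seen. Of 52 entries in the 4 other lists, 48 were found, which left out Tor, Lobe, abce1 and mEFG2. Members and lists were chosen with earlier results of these data known. No sequence of arm 2R is shown.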

Additional observations from a re-analysis of the deposited data

How the results depend on the processing

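Of members, 8 were bound, beside 10.3% of all genes. The count was 7 (beside 7.77%) within 250 bp, 9 (beside 12.3%) within 1000 bp, 6 (beside 8.44%) with the 5'-most TSS alone and 7 (beside 5.89%) with the 1585 strongest optimal peaks. With a peak interval over a TSS it was 4, beside 6.29%, and where a summit counted for its nearest TSS alone it was 5, beside 8.02%. The initiation count was then 0 and 1 in place of 4, while the elongation count was 4 in both settings and 3 to 4 in all others, so the initiation count depends on letting a summit count for every start within reach. In a single replicate the members numbered 10 to 10, initiation factors 6 to 6 and elongation factors 4 to 4. Members held by both replicates were 9, beside 5.99%, and 4, beside 3.38%, with the strongest 1585 peaks of each (eEF1gamma, eIF1, eIF4EHP and eIF6). The median relaxed rank, 6635, ran from 3500.5 to 6985 in single replicates. It was 3500.5 without replicate 3, where fewer members had a summit and the median over all genes with one was 7920. No paired analysis was possible because the samples form 1 group. The small number of members and the unknown depth limit every share.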

Other observations

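Bound members were spread over arms 2L (2 of 5), 2R (3 of 13), 3L (1 of 11) and 3R (2 of 15), with 0 of 7 on the X and 0 of 1 on arm 4. Over all protein-coding genes the bound share on these arms was 11.4%, 9.22%, 10.3%, 10.9%, 10.0% and 5%. Peaks were mostly 400 bp wide, and the narrow ones were those at eEF1gamma (189 bp) and eIF6 (113 bp). Ribosomal protein genes with the CTTT core at a TSS were bound in 16 of 20 cases and those without it in 43 of 72. Over all protein-coding genes the bound shares were 16.6% with the core and 10.1% without it.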
